A study of Mus musculus with 12 samples.

Results

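Interferon-stimulated genes are the antiviral and immune effector genes that cells switch on when they sense an interferon. Here 46 of them, chosen by gene symbol, were measured in the livers of wild-type mice bearing E0771 tumours. All 46 were found among the 55421 genes of the count table, and all 46 passed the filter on low counts, as 15006 genes did in all. E0771 is a mouse mammary carcinoma line, and its cells had been implanted in a mammary fat pad. Housing was at 6 °C for libraries 1 to 4, at 22 °C for libraries 5 to 8 and at 29 °C for libraries 9 to 12, after 1 week of acclimatisation, and the samples are labelled as taken on day 21. Every group carried the tumour, the genotype was wild type throughout, and no tumour-free liver is part of the comparison. The age of the mice is not given, and their strain is given as BALB/c or C57BL/6J without saying which library came from which. Mice kept at 6 °C or 22 °C must produce extra heat, and need little or none at 29 °C.

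Type I interferons act through a receptor whose kinases phosphorylate transcription factors of the STAT family, among them STAT2. Together with IRF9 these enter the nucleus and bind the interferon-stimulated response element (ISRE) in the promoters of responding genes. Interferon gamma works mainly through another promoter element, the gamma-activated sequence (GAS). Genes reached in this way include sensors of foreign nucleic acid, enzymes that break down viral RNA, proteins that block translation or membrane fusion, and guanosine triphosphatases (GTPases) that attack vacuoles of intracellular parasites. In the liver both hepatocytes and the resident macrophages, the Kupffer cells, can respond.

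The promoters of these genes carry the letters of that response. In RefSeq promoter windows, from 250 bases before to 50 bases after the start of a gene on GRCm38.p6, 36 of the 46 genes were found. Dhx58, Zbp1, Oas2, Usp18, Mx1, Mx2, Rtp4, Iigp1, Ifi27 and Parp14 are the other 10. The ISRE core was searched as GAAANNGAAA on both strands, which reads TTTCNNTTTC on the other strand, and 23 of the 36 genes (63.9%) held it, against 3.99% of 27025 genes with a window. A GAS, searched as TTCNNNGAA, which reads the same on both strands, was present in 11 of the 36 (30.6%) against 9.55% of all genes. Matches of both kinds overlapped in the windows of 2 of the 36 genes. The ISRE core was found in 3 of 3 sensor genes and 6 of 6 GTPase genes with a window, and in 0 of 4 genes of the group of Ifi35, Ifi44, Ifi44l and Xaf1. A match describes the letters of a window and is not shown to be a bound site.

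The 11 stretches below run 5′ to 3′ on the strand of the gene. Capitals mark the ISRE core nearest the start of the gene, with 20 bases on each side. Further cores in the stretches of Isg15, Ifit1, Oas1a and Oas1g are not marked. The 11 were picked to show the effector families and those gene pairs whose stretches are nearly the same. Reads from such pairs may be hard to assign if their transcripts are also alike, which was not compared.
Ifit3 (chr19:34583387-34583436, + strand): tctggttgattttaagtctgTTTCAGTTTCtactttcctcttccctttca
Ifit3b (chr19:34607783-34607832, + strand): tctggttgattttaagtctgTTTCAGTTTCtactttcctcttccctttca
Ifit1 (chr19:34640784-34640833, + strand): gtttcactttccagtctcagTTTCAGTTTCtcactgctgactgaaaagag
Isg15 (chr4:156200855-156200904, - strand): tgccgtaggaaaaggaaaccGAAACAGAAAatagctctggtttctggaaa
Rsad2 (chr12:26456543-26456592, - strand): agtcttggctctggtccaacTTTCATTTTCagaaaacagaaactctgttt
Oas1a (chr5:120907510-120907559, - strand): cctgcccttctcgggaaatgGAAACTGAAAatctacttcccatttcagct
Oas1g (chr5:120887596-120887645, - strand): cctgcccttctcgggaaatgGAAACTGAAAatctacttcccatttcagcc
Igtp (chr11:58199502-58199551, + strand): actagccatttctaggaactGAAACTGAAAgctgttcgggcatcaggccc
Irgm2 (chr11:58214893-58214942, + strand): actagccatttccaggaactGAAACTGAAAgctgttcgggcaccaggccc
Gbp2 (chr3:142620584-142620633, + strand): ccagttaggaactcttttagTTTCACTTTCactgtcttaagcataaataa
Stat2 (chr10:128270256-128270305, + strand): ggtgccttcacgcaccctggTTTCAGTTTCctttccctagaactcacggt
The stretches of Ifit3 and Ifit3b were identical over 50 of 50 bases, those of Oas1a and Oas1g over 49 of 50, and those of Igtp and Irgm2 over 48 of 50. The marked core lay on the gene's own strand in Isg15, both Oas1 genes, Igtp and Irgm2, and on the opposite strand in the IFIT genes, Rsad2, Gbp2 and Stat2. Windows of Irf7, Ifit2, Oasl1, Oasl2 and Ifi44l held no match to these letters.

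Total counts ran from 7615585 to 19001126 per library, so that 3 counts correspond to 0.158 to 0.394 CPM (counts scaled to the library total). A listed 0 allows up to that level, for counting error alone. Levels below are CPM on library sizes scaled by TMM. Differences are log2 fold changes from edgeR's quasi-likelihood test, with Benjamini-Hochberg adjustment over all 15006 genes tested and an adjusted p under 0.05 as the threshold for a call. Nothing in the labels ties each library to a separate animal, so a p-value reflects only how these libraries scatter. Libraries 1 (6 °C), 7 and 8 (22 °C) and 9 (29 °C) held 134 to 248 counts of H2-Ea-ps, and the other 8 held 0. H2-Ea-ps (chr17:34341959-34344645, GRCm38) is the class II histocompatibility gene Ea, annotated as a pseudogene in the C57BL/6J reference. The division by H2-Ea-ps comes from the counts of that gene, which is not among the 46, and is no group of the study. Whether it follows the strain of the mice was not tested, since the labels give no strain for a library, so strain cannot be told apart from any with-against-without difference below, Trim12a and Ifi44l included. It was fitted as a term beside temperature. The same 4 libraries held 0.662% to 2.27% of their counts as mitochondrial ribosomal RNA, against 0.0668% to 0.342% in the other 8. Within the 22 °C group, libraries 5 and 6 held less of the ribosomal-RNA-related transcript Gm26917 (0.667% and 0.605% of counts) than any other library (1.66% to 8.70%).

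Per kilobase of exon, levels of the genes spread widely. Ifitm3, which hinders the fusion of viruses with membranes, was highest at a mean of 304 CPM per kb over the 12 libraries (168 to 471). Ifitm2 followed at 82.2, Bst2 at 60.1, Ifi27 at 40.4, Iigp1 at 38.0 and Stat2 at 21.9 CPM per kb. The lowest of the 44 genes with an exon length were Ifit3b at 1.40, Oas1g at 0.833 and Ifi44l at 0.656 CPM per kb. Isg15 and Mx1 had no matching identifier in the annotation and are given in CPM alone. Neighbours in this order mostly overlapped over libraries, as with Igtp at 8.38 to 40.4 and Irgm2 at 8.48 to 39.4 CPM per kb. The range of Ifitm3 lay above those of Ifitm2 (52.1 to 120) and of Bst2 (27.7 to 124).

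More of the 46 genes were called by H2-Ea-ps counts than by housing temperature, and so were more of all genes. By temperature alone, 2.53%, 0% and 0.0333% of all genes were called in the 3 comparisons, ordered as given further on. That temperature fit held no H2-Ea-ps term. At equal temperature 27 of the 46 were lower in the 4 libraries with H2-Ea-ps counts, 1 was higher (Ifi44l), and 18 were not called. Over all genes tested, 11.4% were called lower and 11.2% higher in the same fit. The median log2 fold change of the 46 was -0.59, and that of all genes was 0.03, with 44 of the 46 below 0. Setting Trim12a and Ifi44l, each with libraries at 0, to the bounds given further on does not move that median. In 17 of the 46 the 4 libraries lay below each of the other 8, which held for 4.78% of all genes. At each of the 3 temperatures taken alone, the libraries with H2-Ea-ps counts lay below those without in 23 of the 46 (50%), against 10.4% of all genes. Trim12a had already been picked out by its values in these data, so its place among the 27 is a description. In RNA from whole liver, fewer cells of a type and less RNA per cell cannot be told apart.

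**Figure D1:**
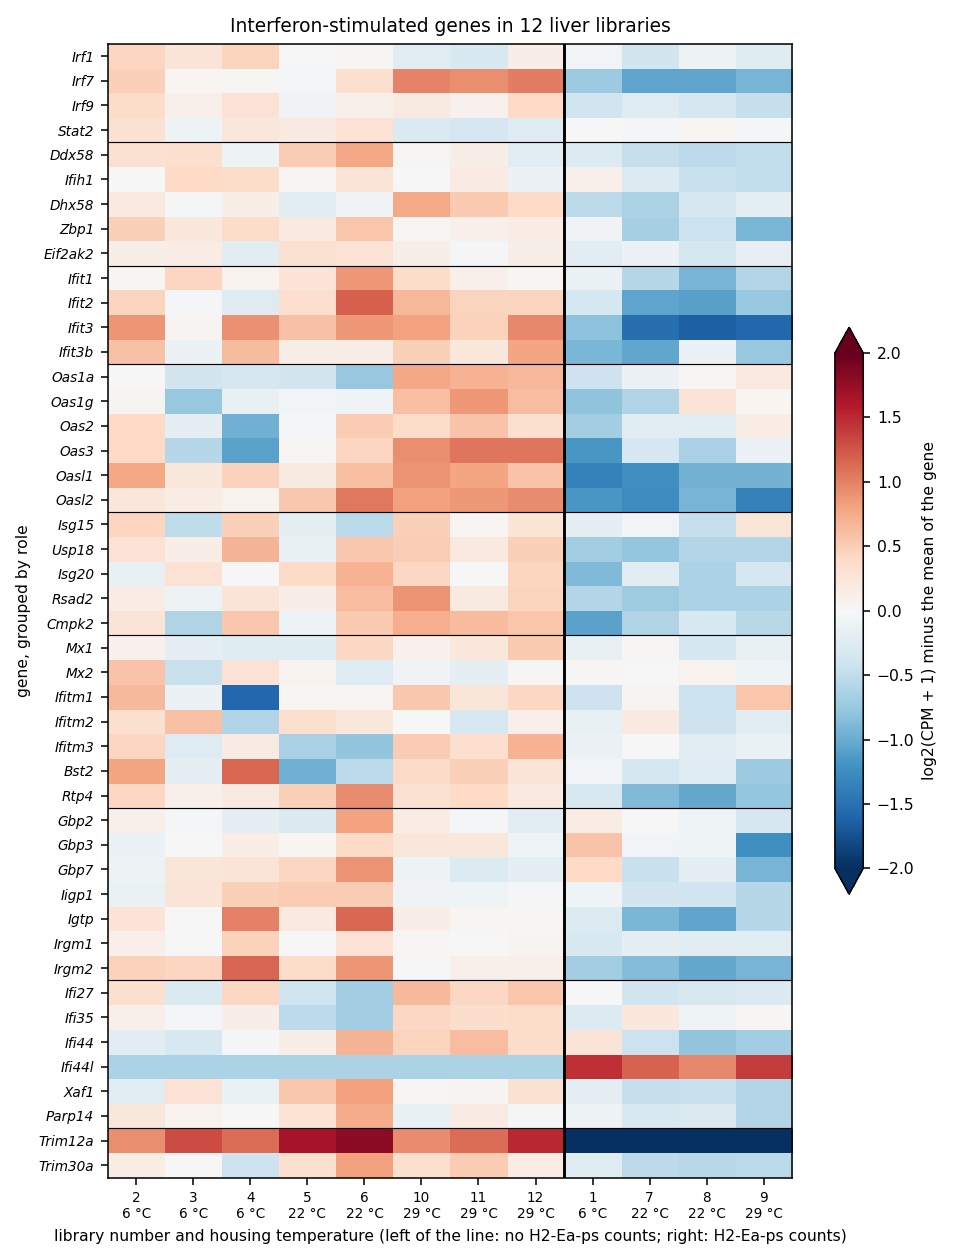
Each row is 1 of the 46 genes, grouped by role, and each column 1 library, with libraries without H2-Ea-ps counts left of the vertical line. Colour gives log2(CPM + 1) minus the mean of the gene over the 12 libraries. Rows of the IFIT genes, Oasl1, Oasl2, Ddx58 and Irgm2 are blue in all 4 libraries right of the line, Ifih1 is blue in 3 of them, and Ifi44l is red there.

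Taken library by library, the median deviation of the 46 genes from their own means, on the log2(CPM + 1) scale, was lowest in library 9 (-0.52), then libraries 8 (-0.40), 7 (-0.37) and 1 (-0.27). The other 8 ranged from 0.00 in library 3 to 0.46 in library 6. Library 6, kept at 22 °C, held the highest level of 15 of the 46 genes. Within its own temperature, library 9 lay below all 3 others in 39 of the 46 genes (84.8%), where 33.9% of all genes did so. Library 1 lay below its 3 others in 27 (58.7%, against 29.6% of all genes). Libraries 7 and 8 lay below both of their others in 35 and 36 (76.1% and 78.3%, against 38.8% and 39.4% of all genes).

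Irf7, the factor that amplifies interferon production once a response has begun, showed the strongest difference of the 4 transcription factor genes. Irf7 stood at 30.1, 23.6, 23.6 and 26.1 CPM in libraries 1, 7, 8 and 9. In the other libraries Irf7 was at 70.0, 52.0 and 51.4 CPM at 6 °C, 48.7 and 63.4 CPM at 22 °C and 101, 97.1 and 103 CPM at 29 °C. The groups did not overlap, and the log2 fold change was -1.34 ± 0.15 (SE, adjusted p = 3.06e-05). Irf9, the DNA-binding partner of STAT2, was lower too, at 32.9 to 37.7 CPM with H2-Ea-ps counts against 43.0 to 60.3 CPM (median 50.3) without, with a log2 fold change of -0.53 ± 0.11 (SE, adjusted p = 0.00368). Stat2 stood apart from its partner. For Stat2, libraries 1, 7, 8 and 9 held 129, 126, 131 and 125 CPM. The remaining Stat2 levels were 159, 119.8 and 149.7 CPM at 6 °C, 146 and 157 CPM at 22 °C and 104, 102 and 107 CPM at 29 °C. The 4 libraries fell inside the range of the other 8, at a log2 fold change of -0.05 ± 0.11 (SE, adjusted p = 0.777). Libraries 7 and 8 lay below the other libraries at 22 °C, but library 9 lay above the others at 29 °C. Irf1, an early target of interferon gamma, was likewise not called. Levels of Irf1 were 43.3, 34.6, 41.8 and 38.0 CPM in the libraries with H2-Ea-ps counts. Without them, Irf1 reached 61.0, 53.7 and 61.7 CPM at 6 °C, 45.5 and 45.5 CPM at 22 °C and 38.4, 36.2 and 49.3 CPM at 29 °C. Its ranges overlapped, with a log2 fold change of -0.27 ± 0.11 (SE, adjusted p = 0.109).

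All 5 sensor genes were lower in the libraries with H2-Ea-ps counts. Ddx58 (RIG-I), a cytoplasmic RNA sensor, ran at 38.1 to 45.4 CPM with H2-Ea-ps counts against 46.6 to 94.2 CPM (median 64.3) without, a log2 fold change of -0.74 ± 0.14 (SE, adjusted p = 0.00182). Zbp1, which detects nucleic acid in the Z form, ran at 9.95 to 18.8 CPM with H2-Ea-ps counts against 20.02 to 29.5 CPM (median 22.8) without, a log2 fold change of -0.84 ± 0.14 (SE, adjusted p = 0.000757). For these genes the ranges did not meet. Ifih1 (MDA5), Dhx58 (LGP2) and Eif2ak2 had smaller log2 fold changes of -0.41, -0.59 and -0.37, with overlapping ranges. Eif2ak2 encodes PKR, the kinase that shuts down translation on meeting double-stranded RNA. Eif2ak2 was measured at 23.3, 25.4, 21.3 and 24.5 CPM in libraries 1, 7, 8 and 9. Libraries without H2-Ea-ps counts gave Eif2ak2 levels of 30.0, 30.7 and 23.8 CPM at 6 °C, 34.4 and 33.3 CPM at 22 °C and 29.9, 27.0 and 30.1 CPM at 29 °C. Its adjusted p was 0.034, and this call was lost without any 1 of libraries 1, 3, 5 to 10 and 12. Ifih1 lost its call without library 6, 8 or 9, and Dhx58 without library 9. Summed over the 5 genes, levels were 122 to 153 CPM with H2-Ea-ps counts and 164 to 232 CPM without.

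The IFIT genes, neighbours on chromosome 19 whose proteins bind foreign RNA and block its translation, were called lower in 4 of 4. Ifit3 (chr19:34583531-34588731) had the largest fold among the genes measured in every library. Ifit3 stood at 4.03, 2.11, 1.87 and 2.01 CPM in libraries 1, 7, 8 and 9. In the other libraries Ifit3 was at 15.4, 8.18 and 15.8 CPM at 6 °C, 12.4 and 15.2 CPM at 22 °C and 14.5, 11.2 and 16.3 CPM at 29 °C. The lowest library without H2-Ea-ps counts, library 3, still held more than the highest with them, library 1, and the log2 fold change was -2.42 ± 0.25 (SE, adjusted p = 1.04e-05). For Ifit1, libraries 1, 7, 8 and 9 held 10.4, 7.41, 5.52 and 7.33 CPM. The remaining Ifit1 levels were 11.8, 15.8 and 12.1 CPM at 6 °C, 14.03 and 21.7 CPM at 22 °C and 15.01, 12.4 and 11.8 CPM at 29 °C. No overlap was seen for Ifit1 either, at a log2 fold change of -0.93 ± 0.20 (SE, adjusted p = 0.00462). Ifit2 differed by -1.40 ± 0.27 (SE, adjusted p = 0.00229) on the log2 scale. The 4 genes together summed to 13.5 to 22.4 CPM with H2-Ea-ps counts and 35.3 to 62.4 CPM without. Ifit3b, at 0.702 to 2.24 CPM with H2-Ea-ps counts and 2.22 to 5.08 CPM without, differed by -1.53 (adjusted p = 0.00782). Ifit3 and Ifit3b have the same promoter stretch. Their transcripts were not compared, so how well reads divide between them is uncertain.

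The OAS genes divided among themselves. OAS enzymes make short adenylate chains that activate the ribonuclease RNase L, and the OAS-like proteins Oasl1 and Oasl2 are their relatives. Levels of Oasl2 were 7.99, 7.41, 9.56 and 6.87 CPM in the libraries with H2-Ea-ps counts. Without them, Oasl2 reached 22.6, 21.2 and 20.2 CPM at 6 °C, 28.2 and 40.8 CPM at 22 °C and 34.4, 35.8 and 37.5 CPM at 29 °C. Oasl2 did not overlap between the sets and differed by -1.93 ± 0.16 (SE, adjusted p = 1.71e-06). Oasl1 was measured at 4.82, 5.36, 6.72 and 6.79 CPM in libraries 1, 7, 8 and 9. Libraries without H2-Ea-ps counts gave Oasl1 levels of 24.6, 16.2 and 19.7 CPM at 6 °C, 15.9 and 21.7 CPM at 22 °C and 26.8, 25.0 and 21.1 CPM at 29 °C. Its log2 fold change was -1.82 ± 0.16 (SE, adjusted p = 3.43e-06), again without overlap. Oas3 stood at 6.55, 12.3, 9.71 and 14.5 CPM in libraries 1, 7, 8 and 9. In the other libraries Oas3 was at 21.1, 10.3 and 7.03 CPM at 6 °C, 16.1 and 21.6 CPM at 22 °C and 31.2, 34.5 and 34.5 CPM at 29 °C. Oas3 overlapped between the sets, since libraries 3 and 4 were as low as libraries 7 and 8, and differed by -0.95 ± 0.23 (SE, adjusted p = 0.0105), a call that was lost without library 9. Oas1a was not called. For Oas1a, libraries 1, 7, 8 and 9 held 2.74, 3.58, 4.03 and 4.71 CPM. The remaining Oas1a levels were 3.99, 2.86 and 2.93 CPM at 6 °C, 2.86 and 1.94 CPM at 22 °C and 7.51, 7.04 and 6.85 CPM at 29 °C. At equal temperature its log2 fold change by H2-Ea-ps counts was 0.00 ± 0.24 (SE), and the high libraries were those at 29 °C. Libraries 7 and 8 lay above the other libraries at 22 °C, but library 9 lay below the others at 29 °C. Oas1g (-0.62 ± 0.37), whose promoter stretch is nearly that of Oas1a, and Oas2 (-0.45 ± 0.20) were not called.

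Of the ubiquitin-like and nucleotide effectors, 4 of 5 were lower. Usp18 removes ISG15 from its targets and restrains the interferon receptor. Levels of Usp18 were 9.22, 8.68, 10.005 and 9.95 CPM in the libraries with H2-Ea-ps counts. Without them, Usp18 reached 19.1, 17.1 and 25.5 CPM at 6 °C, 13.8 and 23.1 CPM at 22 °C and 22.2, 17.9 and 22.1 CPM at 29 °C. The sets did not overlap, and the log2 fold change was -1.06 ± 0.17 (SE, adjusted p = 0.000475). Rsad2 (viperin) makes a chain-terminating nucleotide. Rsad2 was measured at 10.01, 9.003, 9.56 and 9.57 CPM in libraries 1, 7, 8 and 9. Libraries without H2-Ea-ps counts gave Rsad2 levels of 17.3, 14.4 and 18.7 CPM at 6 °C, 17.0 and 24.1 CPM at 22 °C and 29.7, 17.6 and 21.5 CPM at 29 °C. Its log2 fold change was -1.06 ± 0.17 (SE, adjusted p = 0.000614), also without overlap. Isg20, an RNA exonuclease, and Cmpk2, a nucleotide kinase that lies beside Rsad2 on chromosome 12, differed by -1.11 (adjusted p = 0.00347) and -1.08 (adjusted p = 0.00348). Isg15, the ubiquitin-like modifier itself, was the exception. Isg15 stood at 6.48, 7.28, 5.23 and 9.11 CPM in libraries 1, 7, 8 and 9. In the other libraries Isg15 was at 10.5, 5.01 and 10.9 CPM at 6 °C, 6.55 and 4.89 CPM at 22 °C and 10.9, 7.75 and 9.35 CPM at 29 °C. Both sets covered nearly the same range, with a log2 fold change of -0.09 ± 0.22 (SE, adjusted p = 0.821).

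Effectors at membranes mostly were not called. Rtp4, an antiviral RNA-binding protein first known as a receptor chaperone, was the 1 of 7 that was lower, at 7.24 to 12.5 CPM with H2-Ea-ps counts against 17.0 to 31.3 CPM (median 20.6) without and a log2 fold change of -1.23 ± 0.19 (SE, adjusted p = 0.000357). For Ifitm3, libraries 1, 7, 8 and 9 held 182, 197, 171 and 180.2 CPM. The remaining Ifitm3 levels were 265, 164 and 222 CPM at 6 °C, 125 and 114 CPM at 22 °C and 282, 248 and 319 CPM at 29 °C. Over all temperatures Ifitm3 overlapped fully, at 0.00 ± 0.19 on the log2 scale. That value joins opposite differences, with libraries 7 and 8 above the other libraries at 22 °C and library 9 below the others at 29 °C. Libraries 5 and 6 held the least Ifitm3 of the 12. Bst2 (tetherin) holds budding viruses at the cell surface. Levels of Bst2 were 47.5, 38.6, 41.1 and 29.7 CPM in the libraries with H2-Ea-ps counts. Without them, Bst2 reached 86.5, 43.4 and 112 CPM at 6 °C, 25.0 and 34.1 CPM at 22 °C and 64.6, 69.7 and 59.6 CPM at 29 °C. Its highest and lowest levels were both in libraries without H2-Ea-ps counts, 4 and 5, and its log2 fold change was -0.37 ± 0.29 (SE, adjusted p = 0.431). Mx1, Mx2, Ifitm1 and Ifitm2 had log2 fold changes from -0.31 to 0.00 and were not called.

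Among the GTPases the immunity-related (IRG) genes and the guanylate-binding (GBP) genes were counted apart. The IRG genes were lower in 4 of 4, and 0 of 3 GBP genes were called, but this count moves with the fit. Gbp7 was called lower with DESeq2, with no filter on low counts, within 22 °C alone and without library 1 or 2, and Gbp3 was called without library 1. Irgm2 ran at 31.3 to 39.3 CPM with H2-Ea-ps counts against 64.6 to 145 CPM (median 84.9) without, with a log2 fold change of -1.38 ± 0.16 (SE, adjusted p = 3.16e-05). Igtp was measured at 29.7, 18.8, 16.9 and 24.2 CPM in libraries 1, 7, 8 and 9. Libraries without H2-Ea-ps counts gave Igtp levels of 44.0, 36.1 and 73.9 CPM at 6 °C, 41.5 and 81.8 CPM at 22 °C and 39.8, 37.1 and 36.7 CPM at 29 °C. Igtp did not overlap between the sets and differed by -1.13 ± 0.26 (SE, adjusted p = 0.00864). Igtp (chr11:58199556-58207591) lies almost wholly inside the annotated span of Irgm2 (chr11:58199618-58222782) on the same strand, so reads of the shared stretch cannot be placed with certainty. Iigp1, which loads onto the vacuole of Toxoplasma, and Irgm1 differed by -0.59 (adjusted p = 0.00461) and -0.37 (adjusted p = 0.0254), the latter lost without library 1 or 6, with no filter on low counts and within 22 °C alone. Gbp2 stood at 15.99, 14.3, 13.4 and 11.1 CPM in libraries 1, 7, 8 and 9. In the other libraries Gbp2 was at 15.4, 13.9 and 12.5 CPM at 6 °C, 11.5 and 25.8 CPM at 22 °C and 16.04, 13.9 and 12.3 CPM at 29 °C. The sets overlapped for Gbp2, with a log2 fold change of -0.20 ± 0.19 (SE, adjusted p = 0.481). Gbp3 (-0.28) and Gbp7 (-0.53, adjusted p = 0.0613) were not called, and whether the IRG and GBP genes differ from each other was not tested.

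The remaining genes included both extremes. Xaf1, an antagonist of the apoptosis inhibitor XIAP, and Parp14, an ADP-ribosyltransferase, had log2 fold changes of -0.81 (adjusted p = 0.00773) and -0.57 (adjusted p = 0.00584) and were called lower. Ifi44 (-0.64 ± 0.27) and Ifi35 (0.06 ± 0.18) were not called. For Ifi27, libraries 1, 7, 8 and 9 held 56.3, 43.7, 45.3 and 46.2 CPM. The remaining Ifi27 levels were 71.0, 46.4 and 75.8 CPM at 6 °C, 42.5 and 34.7 CPM at 22 °C and 89.1, 76.1 and 83.4 CPM at 29 °C. Ifi27, a small membrane protein of mitochondria, overlapped between the sets (-0.21 ± 0.17). Ifi44l (chr3:151758737-151762892) was present in libraries 1, 7, 8 and 9 at 3.24, 2.49, 2.02 and 3.09 CPM and had 0 counts in the other 8. Its 151 counts in those 4 libraries gave a level at least 94.5-fold higher, taking 3 counts over the 8 libraries as the floor. Ifi44 (chr3:151730922-151749960), its neighbour, is transcribed from the same strand and had counts in each library, from 4.55 to 14.5 CPM.

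Trim12a (chr7:104299894-104315466) was the reverse of Ifi44l. It belongs to the mouse TRIM cluster on chromosome 7, related to Trim5, whose proteins recognise retroviral capsids. It had 0 counts in libraries 1, 7, 8 and 9. Elsewhere it stood at 10.5, 13.8 and 12.05 CPM at 6 °C, 17.8 and 19.9 CPM at 22 °C and 10.6, 12.1 and 16.1 CPM at 29 °C. With 1448 counts in the 8 libraries, its level in the 4 was at least 257-fold lower, with 3 counts over the 4 libraries as the floor. Trim30a (chr7:104409025-104465193) ran at 17.8 to 22.3 CPM with H2-Ea-ps counts against 19.8 to 48.2 CPM (median 31.7) without, a log2 fold change of -0.78 ± 0.17 (SE, adjusted p = 0.00506). Of 8 further genes of this cluster, 3 were lower and 2 higher. Trim30d was at 0.540 to 1.53 CPM with H2-Ea-ps counts against 13.7 to 18.8 CPM (median 15.6) without (-3.85 ± 0.23 SE, adjusted p = 2.63e-08). Trim34a was at 1.54 to 2.99 CPM with H2-Ea-ps counts against 5.96 to 14.2 CPM (median 6.85) without (-2.11 ± 0.23 SE, adjusted p = 1.75e-05). Trim5 was at 0.0720 CPM in library 1 and at 0 in libraries 7, 8 and 9, against 0.636 to 2.84 CPM in the other 8. Trim34b went the other way, at 1.58 to 3.58 CPM with H2-Ea-ps counts and 0 to 0.542 CPM without. The sequences of these related genes were not compared, so how well reads divide among them is uncertain.

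**Figure D2:**
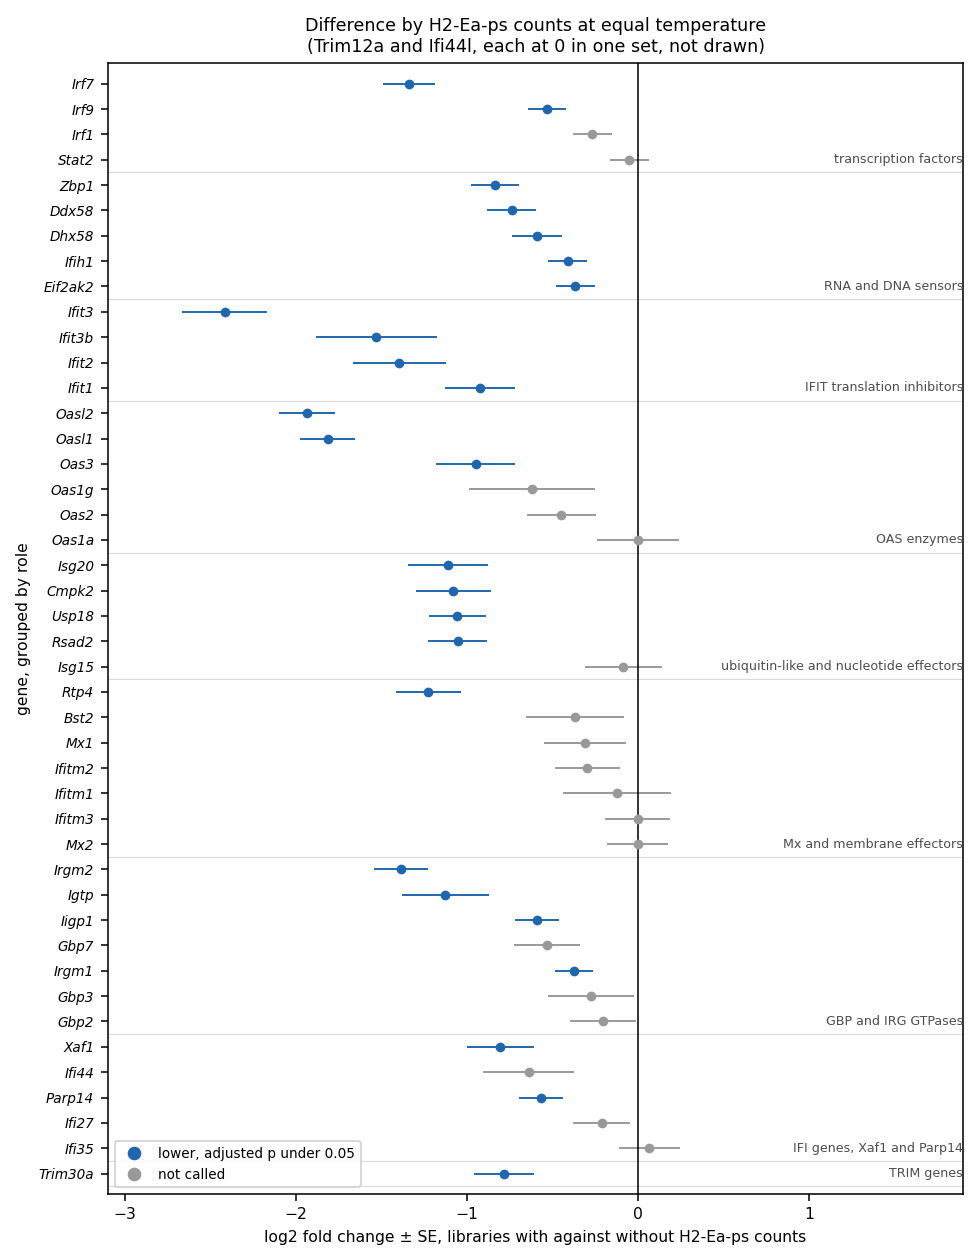
The horizontal axis gives the log2 fold change with its SE for libraries with against libraries without H2-Ea-ps counts at equal temperature, with 1 row per gene grouped by role. Ifit3 lies farthest left at -2.42, Oas1a, Ifitm3 and Mx2 lie at 0, and Trim12a and Ifi44l are not drawn.

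Trim12a and Ifi44l are at 0 throughout 1 of the sets, so their calls could hardly change and are set aside here. Of the 26 other calls, 12 held in each of 20 alternative fits, namely Irf7, Ddx58, Zbp1, Ifit2, Ifit3, Oasl1, Oasl2, Usp18, Rsad2, Rtp4, Igtp and Irgm2. None of the 26 turned its direction in those fits. Within 22 °C alone 27 of the 46 were called, where 23.1% of all genes were. That fit sets libraries 7 and 8 against libraries 5 and 6, which are low in Gm26917. H2-Ea-ps counts and that difference cannot be told apart there. Ifitm3 (0.61, adjusted p = 0.0132) and Ifi35 (0.71, adjusted p = 0.0387) were called there as higher with H2-Ea-ps counts, and Gbp7 and Ifi44 as lower. Leaving out libraries 5 and 6 together left 18 of the 28 calls, where 12.6% of all genes were called, without Ifih1, Eif2ak2, Ifit1, Oas3, Isg20, Iigp1, Irgm1, Xaf1, Parp14 and Trim30a. Of the genes with a promoter window, the ISRE core was present in 13 of 21 called lower (61.9%) and in 10 of 14 not called (71.4%).

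By housing temperature alone, 0 of the 46 genes were called in any of the 3 comparisons, which share libraries with one another. For 29 °C against 6 °C, 2.53% of all genes were called, and the median log2 fold change of the 46 was 0.05 (0.00 for all genes). An unadjusted p under 0.05 was held by 6 of the 46 and by 2913 of all 15006 genes. DESeq2 called 3 of the 46 there (Oas1a, Oas1g and Oas3, higher at 29 °C) and 7.96% of all genes. For 29 °C against 22 °C, 0% of all genes were called. Here 11 of the 46 had an unadjusted p under 0.05, as did 2241 of all 15006 genes. The median of the 46 was 0.11, and DESeq2 called Oas1a and Ifi27 and 2.17% of all genes. For 6 °C against 22 °C, 0.0333% of all genes were called. Here 3 of the 46 had an unadjusted p under 0.05, as did 1787 of all 15006 genes. The median of the 46 was 0.01, and DESeq2 called 0 of the 46 and 1.41% of all genes.

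The genes nearest to a call at 29 °C were OAS genes. Oas1a levels at 29 °C were 4.71 to 7.51 CPM, above the 2.74 to 3.99 CPM at 6 °C and the 1.94 to 4.03 CPM at 22 °C, without overlap. Its log2 fold change from 6 °C was 1.07 ± 0.27 (SE, adjusted p = 0.0557), and from 22 °C 1.06 ± 0.27 (SE, adjusted p = 0.163). Oas3 ranged from 14.5 to 34.5 CPM at 29 °C and from 6.55 to 21.1 CPM at 6 °C, with a log2 fold change of 1.37 ± 0.39 (SE, adjusted p = 0.083). Levels of Oas1g were 0.576, 0.830, 2.31 and 1.85 CPM in the libraries with H2-Ea-ps counts. Without them, Oas1g reached 1.86, 0.636 and 1.51 CPM at 6 °C, 1.66 and 1.63 CPM at 22 °C and 3.18, 4.08 and 3.25 CPM at 29 °C. Its log2 fold change from 6 °C was 1.47 ± 0.45 (SE, adjusted p = 0.0997), and 2 of the 4 libraries at 6 °C were under 1 CPM. Ifi27 at 29 °C (46.2 to 89.1 CPM) did not overlap 22 °C (34.7 to 45.3 CPM), at a log2 fold change of 0.83 ± 0.20 (SE, adjusted p = 0.162). Ifitm3 differed by 0.76 ± 0.22 (SE, adjusted p = 0.194) between these temperatures. Between 6 °C and 22 °C the lowest p belonged to Bst2, at 43.4 to 112 CPM and 25.0 to 41.1 CPM, with a log2 fold change of 1.06 ± 0.32 (SE, adjusted p = 0.276). Ifi27 (0.58) and Irf1 (0.39) came next, with adjusted p of 0.309 and 0.336. Cell markers were also compared between 29 °C and 6 °C, where 2.53% of all genes were called. There 2913 of all 15006 genes had an unadjusted p under 0.05. Kupffer cell and macrophage markers had positive log2 fold changes in 10 of 10 (median 0.62, 0 called, 2 at an unadjusted p under 0.05), with summed levels of 610.5 to 1352 CPM at 29 °C and 513 to 945 CPM at 6 °C. Monocyte markers were positive in 5 of 5 (median 1.25), with Chil3 called, and summed to 77.7 to 163 CPM against 19.6 to 82.0 CPM. Neutrophil markers were positive in 7 of 7 (median 1.04, 0 called, 1 at an unadjusted p under 0.05) and summed to 283 to 1068 CPM against 26.3 to 467 CPM. Their part in the OAS levels was not tested.

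With the H2-Ea-ps term in the fit, 5 of the 46 were called for 29 °C against 6 °C, where 12.6% of all genes were. Irf7 (0.56 ± 0.17 SE, adjusted p = 0.0392), Oas1a (1.08 ± 0.27 SE, adjusted p = 0.0165), Oas1g (1.48 ± 0.41 SE, adjusted p = 0.0275) and Oas3 (1.35 ± 0.25 SE, adjusted p = 0.00453) were higher at 29 °C. Irf1 was lower (-0.43 ± 0.13 SE, adjusted p = 0.0382). Without library 11 the count was 2, Oas1a and Oas3. For 29 °C against 22 °C the term gave 1 call, Irf7 at 0.67 ± 0.17 (SE, adjusted p = 0.0486), where 3.44% of all genes were called, and without library 11 it gave 0. For 6 °C against 22 °C it gave 0, where 0.367% of all genes were called. There 7 of the 46 had an unadjusted p under 0.05, as did 2355 of all 15006 genes. Within 29 °C, libraries 10, 11 and 12 held 97.1 to 103 CPM of Irf7, above each library at 6 °C and 22 °C, while library 9 held 26.1 CPM.

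**Figure D3:**
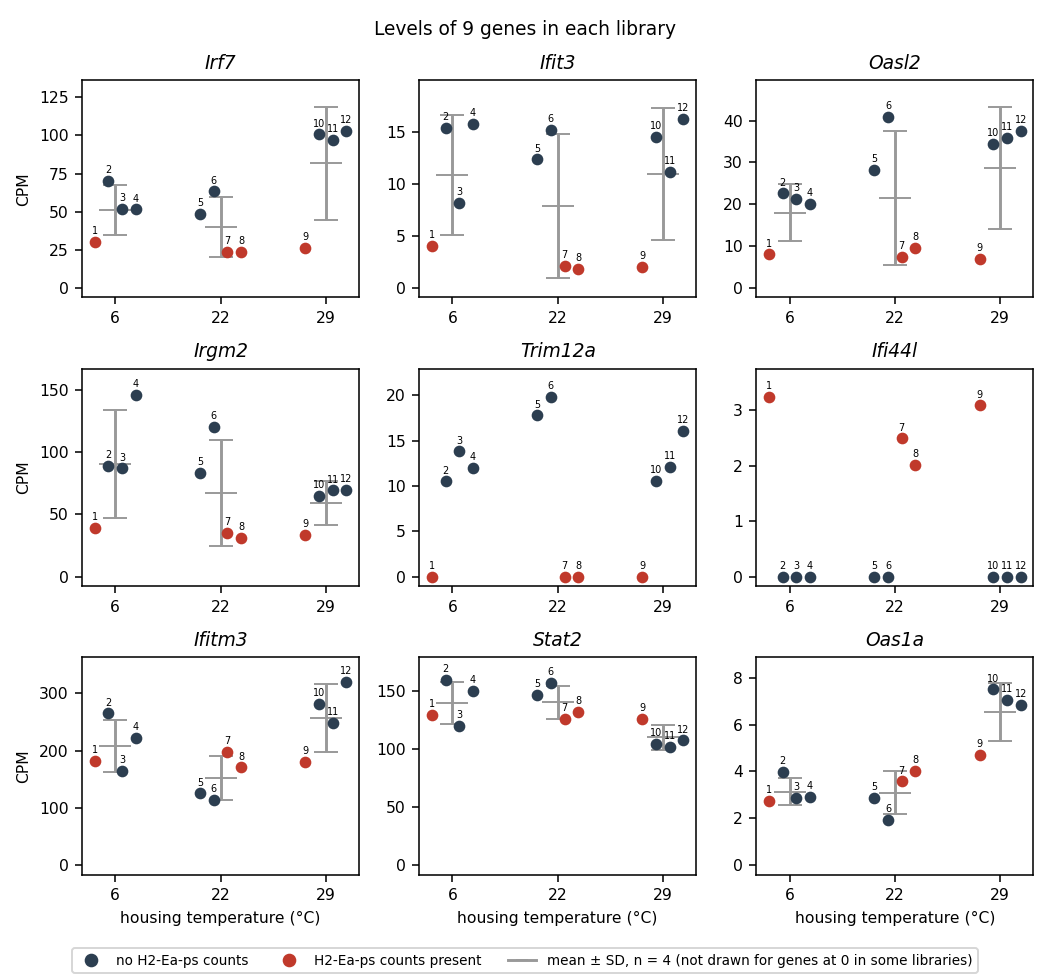
Each panel gives the CPM of 1 gene against housing temperature, with points for the 12 libraries labelled by number and coloured by H2-Ea-ps counts. Grey bars are the mean ± SD of 4 libraries, left out for genes at 0 in some libraries. Libraries 1, 7, 8 and 9 lie at the bottom for Irf7, Ifit3, Oasl2, Irgm2 and Trim12a, and at the top for Ifi44l. For Ifitm3 and Stat2, library 1 lies among the others at its temperature. Libraries 7 and 8 lie above the others at their temperature for Ifitm3 and below them for Stat2. Library 9 lies below the others at 29 °C for Ifitm3 and above them for Stat2. Oas1a is highest at 29 °C.

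Among the 8 libraries without H2-Ea-ps counts (3 at 6 °C, 2 at 22 °C and 3 at 29 °C), 45 of the 46 genes could be tested. For 29 °C against 6 °C, 8 were called, where 9.91% of all genes were. Irf7, Oas1a, Oas1g, Oas3, Oasl2 (0.76, adjusted p = 0.00994) and Ifi44 were higher at 29 °C, and Irf1 and Stat2 were lower. For 29 °C against 22 °C, 11 were called, where 17.1% of all genes were. Of these, Irf7, Dhx58, Oas1a, Ifitm3 (1.24, adjusted p = 0.00235), Ifi27 and Ifi35 were higher at 29 °C, and Stat2, Ddx58, Gbp7, Iigp1 and Parp14 were lower. For 6 °C against 22 °C, 4 were called, where 6.69% of all genes were, with Ifitm3, Ifi27 and Ifi35 higher and Oasl2 lower at 6 °C. The 22 °C group here consists of libraries 5 and 6, the libraries low in Gm26917, so in these comparisons that difference and 22 °C housing cannot be told apart.

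**Figure D4:**
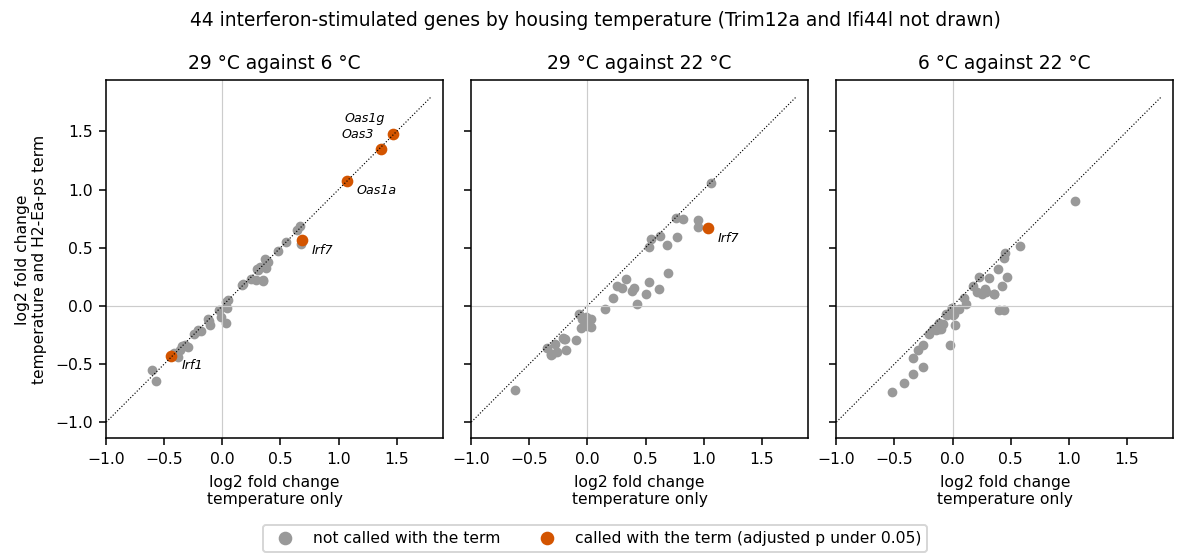
Each panel is 1 temperature comparison, with the log2 fold change from the fit of temperature alone on the horizontal axis and from the fit with the H2-Ea-ps term on the vertical axis, for 44 genes. Called genes are orange and named, and Irf7 keeps a positive log2 fold change in both comparisons with 29 °C.

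Upstream of the response, 12 interferon genes, among them Ifnb1, Ifng and Ifnl2, were listed at 0 counts in each of the 12 libraries, which allows each up to 0.158 to 0.394 CPM, depending on the library. Of 10 genes for interferon receptors and transducers, 0 were called by H2-Ea-ps counts with edgeR. In the same fit, where 5275 of all 15006 genes had an unadjusted p under 0.05, 4 of the 10 did. Among these were Ifnar1 (-0.32 ± 0.11 SE, adjusted p = 0.0508), a chain of the type I receptor, Ifnlr1 (1.04 ± 0.41 SE, adjusted p = 0.0872), a chain of the interferon lambda receptor, and the signalling kinase gene Jak2 (0.34 ± 0.15 SE, adjusted p = 0.0973). Of 12 adaptors and kinases downstream of the sensors, Mavs (-0.55 ± 0.10 SE, adjusted p = 0.00117), the mitochondrial adaptor of RIG-I and MDA5, and Irf5 (-0.73 ± 0.16 SE, adjusted p = 0.00568) were lower and 10 were not called. Of 6 genes that restrain the pathway, Socs3 was higher (0.87 ± 0.27 SE, adjusted p = 0.0449) and 5 were not called. For all of these lists, the shares over all genes tested were 11.4% called lower and 11.2% called higher.

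Of 42 further interferon-stimulated genes tested outside the 46, 19 were lower with H2-Ea-ps counts, 0 were higher and 23 were not called. Their median log2 fold change was -0.49. Over all genes tested, 11.4% were called lower and 11.2% higher, and the median was 0.03. Epsti1 was at 1.87, 1.34, 1.34 and 1.39 CPM in libraries 1, 7, 8 and 9 and at 4.12 to 9.78 CPM in the other 8 (log2 fold change -2.08 ± 0.27 SE, adjusted p = 8.02e-05). Lgals3bp (-0.75 ± 0.11 SE, adjusted p = 0.000237) and Ube2l6 (-0.70 ± 0.11 SE, adjusted p = 0.000375), the conjugating enzyme for ISG15, also did not overlap, and the GTPase gene Tgtp1 had a log2 fold change of -2.70 ± 0.53 (SE, adjusted p = 0.00148). Ube2l6 barely escaped overlap, with 34.78 CPM in library 1, the highest with H2-Ea-ps counts, and 34.87 CPM in library 11, the lowest without. By temperature, 1 of the 42 was called for 29 °C against 6 °C (Tor3a, 1.07, adjusted p = 0.0371), where 2.53% of all genes were. For 29 °C against 22 °C and 6 °C against 22 °C, 0 were called. An unadjusted p under 0.05 was held there by 9 and 6 of the 42, against 2241 and 1787 of all 15006 genes. Ifngr1, a chain of the interferon gamma receptor, was called for 29 °C against 6 °C (0.73 ± 0.15 SE, adjusted p = 0.0301).

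Markers of other cells were compared in the same fit by H2-Ea-ps counts, where 11.4% of all genes were called lower and 11.2% higher. Of 10 Kupffer cell and macrophage markers 6 were lower with H2-Ea-ps counts, and their summed level ran from 412 to 638 CPM against 513 to 1352 CPM. Adgre1 (F4/80) was at 15.7 to 18.4 CPM with H2-Ea-ps counts against 31.5 to 78.6 CPM (median 56.1) without (-1.69 ± 0.17 SE, adjusted p = 1.27e-05). Marco (-3.20), C1qb (-0.82) and Csf1r (-0.73) were lower as well. Neutrophil markers summed to 467 to 1068 CPM with H2-Ea-ps counts and 26.3 to 385 CPM without, with 3 of 7 higher, among them Ly6g (2.08 ± 0.36 SE, adjusted p = 0.000586) and S100a9. Of 5 monocyte markers 2 were higher, Ccr2 (1.35) and F13a1. The monocyte markers Ly6c2 (-0.78 ± 0.41 SE, adjusted p = 0.194) and Chil3 (-0.27 ± 0.35 SE, adjusted p = 0.641) had negative values and were not called. Class II histocompatibility genes, which interferon gamma induces, were lower in 4 of 7 (Cd74, H2-Ab1, H2-DMb1 and H2-Eb1), with summed levels of 102 to 133 CPM against 151 to 377 CPM. Plasmacytoid dendritic cell markers, of cells known as strong interferon producers, summed to 2.39 to 10.3 CPM with H2-Ea-ps counts and 2.53 to 7.28 CPM without, and 0 of the 3 tested were called. Within the whole list, tested or not, Siglech ran at 0.586 to 1.75 CPM over the 12 libraries, and Cox6a2 had 2 counts in each of libraries 5 and 10 and 0 in the others. Hepatocyte markers were abundant in each library, at summed levels of 86204 to 105310 CPM with H2-Ea-ps counts and 96609 to 203079 CPM without, and Alb and Cps1 of 6 were lower. In the remaining lists, 2 of 3 B cell markers were lower, T and NK cell markers had 1 higher and 1 lower of 6, endothelial and cholangiocyte markers 1 higher and 1 lower of 5 each, and stellate cell markers 1 higher of 5. The part of these cells, and of mitochondrial ribosomal RNA, in the levels of the 46 genes was not tested.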

How the data were processed

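Total RNA from liver was depleted of ribosomal RNA and sequenced, per the labels' protocols. The table the authors deposited holds whole-number read counts for each gene, not normalized, beside gene symbols. The genome build GRCm38 and the tools DESeq2 1.44.0, STAR 2.6.1a and bcl2fastq appear in the submitters' processing notes, without settings. How reads were counted, and whether by strand, is not given in the sources used here, so overlapping and near-identical genes are uncertain. Each of the 12 count columns carries a library name that stands in the description of 1 sample.

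The deposited counts entered edgeR 4.0.16 (R 4.3.3, TMM, filterByExpr by temperature, robust quasi-likelihood fit, two-sided). A first fit held the 3 temperature groups, and a second added a term for the libraries that reach 1 CPM of H2-Ea-ps. SEs come from the weights and posterior variance of the fit. DESeq2 1.42.0, DESeq2 size factors, upper-quartile factors, other filters, other sets of libraries and leaving out each library were alternatives. Positions come from GENCODE vM21 by identical identifier (44 of 46 genes), and promoters from RefSeq. None of the 18 replicate pairs was a repeat deposit, with chi-square values of 12.7 to 136 for each degree of freedom.

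The 46 genes, the other lists and the tests were chosen with earlier results of these data known. Each of the 46 is accounted for by role. Levels in every library are given for 16 genes picked by role and for the called genes with the largest folds, at most 5 per comparison, or the 3 with the lowest p where none was called. Genes outside the 46 were named by lowest p, at most 4 per list and comparison. Siglech, Cox6a2, Ifnb1, Ifng and Ifnl2 were named for what they are known to do. A result that the rule names is not reported here.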

Additional observations from a re-analysis of the deposited data

Results flagged for a closer look

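In 14 of the 138 sets of 4 libraries at 1 temperature, 1 library stood far from the others of its group by Dixon's criterion. Chance alone gives about 1 in 20 for a single set. These sets come from the same libraries and are not independent, so their number cannot be held against that rate. Library 9 accounted for 8 of the 14. It was the lowest at 29 °C for Irf7 (26.1 CPM), Zbp1 (9.95 CPM), Oas3 (14.5 CPM), Oasl2 (6.87 CPM), Iigp1 (144 CPM), Irgm2 (33.2 CPM) and Ifi35 (16.4 CPM), and the highest for Ifi44l (3.09 CPM). Library 1, which like library 9 is the single one of its group with H2-Ea-ps counts, was the lowest at 6 °C for Oasl2 (7.99 CPM) and the highest for Ifi44l (3.24 CPM). Both flags of Ifi44l follow from 0 counts in the other libraries of those groups. The remaining 4 were Irf1 in library 12, highest at 29 °C (49.3 CPM), Oas1a in library 2, highest at 6 °C (3.99 CPM), Xaf1 in library 3, highest at 6 °C (11.4 CPM), and Ifitm1 in library 8, lowest at 22 °C (14.3 CPM).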

How the results depend on the processing

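By temperature alone 0 of the 46 genes were called with edgeR under each other scaling or filter tried. DESeq2 called 3 for 29 °C against 6 °C, 2 for 29 °C against 22 °C and 0 for 6 °C against 22 °C. The H2-Ea-ps term gave 5, 1 and 0 in that order, and without library 11 as well, chosen after seeing the data, 2, 0 and 0. The 8 libraries without H2-Ea-ps counts gave 8, 11 and 4. Leaving out 1 library at a time gave 0 to 1 for 29 °C against 6 °C (Oas3 without library 2, Oas1a without library 6), 0 to 1 for 29 °C against 22 °C (Ifi27 without library 9) and 0 for 6 °C against 22 °C.

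For the division by H2-Ea-ps counts, 28 calls became 24 to 29 when 1 library was left out and 18 when libraries 5 and 6 were, an alternative chosen after seeing the data. Within 22 °C alone 27 were called, 23 of them shared with the 28 and, of the 4 gained, Ifitm3 and Ifi35 higher. The libraries without H2-Ea-ps counts at 22 °C are 5 and 6, both low in Gm26917, and these differences cannot be told apart. Eif2ak2 was lost most often. The causes of these differences were not tested. No paired analysis was possible because the labels number the libraries 1 to 12 with no number shared between groups. Depth limits Ifit3b, Oas1g, Mx1 and Ifi44l, each under 6 CPM in every library.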
